A study of Mus musculus with 18 samples.

Results

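P13.9 cells, the mouse fibroblast line that presented antigen in this study, were compared with naive CD4+ T cells by 3′ messenger RNA sequencing. The comparison takes the 3 P13.9 and the 3 naive libraries, 6 of the 18 in the series, and all 15698 named genes of the deposited table of normalized values. Each gene's value is its read count divided by 1 size factor per library. The naive cells were CD4+ T cells from spleen and lymph node that carried the transgenic 5CC7 T cell receptor. The P13.9 libraries are labelled as the cell line alone. Another group of 3 libraries, 5CC7 CD4+ T cells taken on day 4 of activation by P13.9 cells loaded with the peptide pPCC at 10 µM, is used where it shows how P13.9 compares with activated T cells. The study as a whole is about T helper fate under weak and strong T cell receptor signals. P13.9 is 1 cell line, and the labels name no allele or transgene that it carries. They do not say whether the 3 libraries of a group came from separate cultures or animals, so that p-values measure only a spread between libraries. In the main fit, limma's standard errors and p-values pool that spread over all 6 groups of the series, 18 libraries in all. The naive libraries vary more than the others.

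Fibroblasts are mesenchymal cells that secrete collagens and other matrix proteins, attach to them through integrins and focal adhesions, and sense tension through the YAP and TEAD transcription factors. Naive CD4+ T cells are small resting lymphocytes that read peptides through the T cell receptor and CD3, recirculate through lymph nodes under S1pr1 and Ccr7, and keep out of the cell cycle under Klf2, Foxo1 and the Btg proteins. The 5CC7 receptor sees its peptide on the MHC class II molecule I-E, whose 2 chains are encoded by H2-Ea and H2-Eb1.

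Sequences just before the transcription start are shown for 6 genes, 3 from each side of the comparison, because they hold the short motifs that set some of the gene lists below apart from the other promoters. All are the 250 bases before the start on GRCm38.p6, the assembly also called mm10, from RefSeq, and they read 5′ to 3′ on the gene's strand. The first 3 belong to targets of YAP and TEAD, and capitals mark CATTCC, the core that TEAD factors bind, on either strand.

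Ankrd1 (chr19:36119845-36120094, minus strand): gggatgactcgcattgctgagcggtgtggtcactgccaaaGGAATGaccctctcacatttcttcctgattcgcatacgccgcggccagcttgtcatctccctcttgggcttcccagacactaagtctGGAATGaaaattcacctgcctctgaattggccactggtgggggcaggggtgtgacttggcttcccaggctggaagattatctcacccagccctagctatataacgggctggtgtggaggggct
Amotl2 (chr9:102717554-102717803, plus strand): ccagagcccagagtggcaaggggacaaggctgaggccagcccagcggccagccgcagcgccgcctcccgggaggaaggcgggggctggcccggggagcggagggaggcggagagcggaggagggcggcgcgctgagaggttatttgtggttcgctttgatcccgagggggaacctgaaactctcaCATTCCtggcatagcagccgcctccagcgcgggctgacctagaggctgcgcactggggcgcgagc
Ccn1 (chr3:145649986-145650235, minus strand): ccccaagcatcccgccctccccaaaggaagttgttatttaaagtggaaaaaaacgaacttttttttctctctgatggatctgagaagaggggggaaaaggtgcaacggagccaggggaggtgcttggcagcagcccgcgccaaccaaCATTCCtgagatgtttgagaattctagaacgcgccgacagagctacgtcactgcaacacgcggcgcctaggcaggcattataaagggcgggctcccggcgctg

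In Ankrd1 the matches lie 210 and 123 bases before the start, in Amotl2 65 and in Ccn1 103 bases before it. The next 3 belong to T cell genes, and capitals mark AGGAAG, a core bound by ETS factors, and TGTGGT, a core bound by RUNX factors, on either strand.

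Lck (chr4:129573642-129573891, minus strand): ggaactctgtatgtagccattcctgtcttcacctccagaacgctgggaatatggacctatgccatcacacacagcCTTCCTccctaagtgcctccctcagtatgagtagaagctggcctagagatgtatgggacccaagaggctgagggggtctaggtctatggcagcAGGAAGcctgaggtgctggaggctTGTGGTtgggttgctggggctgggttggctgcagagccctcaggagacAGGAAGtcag
Ptprc (chr1:138175306-138175555, minus strand): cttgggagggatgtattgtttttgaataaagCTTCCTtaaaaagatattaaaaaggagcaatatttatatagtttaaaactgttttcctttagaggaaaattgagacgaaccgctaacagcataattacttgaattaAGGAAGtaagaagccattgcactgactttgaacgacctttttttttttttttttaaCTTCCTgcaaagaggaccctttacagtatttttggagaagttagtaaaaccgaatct
Cd3e (chr9:45009612-45009861, minus strand): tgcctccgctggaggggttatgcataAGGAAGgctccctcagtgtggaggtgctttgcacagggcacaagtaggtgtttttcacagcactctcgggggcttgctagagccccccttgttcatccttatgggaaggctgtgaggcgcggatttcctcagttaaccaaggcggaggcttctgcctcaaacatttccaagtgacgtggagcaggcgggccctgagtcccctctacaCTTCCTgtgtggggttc

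Lck holds 4 matches, of which the 1 to TGTGGT lies 58 bases before the start, Ptprc holds 3 and Cd3e 2. For Lck and Ptprc the table holds 2 starts, and the one with more matches is shown. Promoters are counted per gene below, and a match at any start of a gene was enough. Over the window from 250 bases before to 50 after a start, CATTCC was present in 7 of 10 promoters of the YAP and TEAD target list and in 845 of the 6068 promoters of all genes tested. AGGAAG was present in 65.7% and TGTGGT in 35.8% of 67 promoters of the T cell receptor, signaling, homing, GIMAP and leukocyte lists, against 38.0% and 14.5% of all. AGGAAG was also present in 7 of the 10 YAP and TEAD target promoters, so that it does not set the T cell lists apart from that one. TGTGGT was in 3 of those 10, Ankrd1 and Amotl2 among them, and in 26.1% of promoters of the matrix lists. CATTCC was not confined to the YAP and TEAD targets. It was in 14 of the 67 T cell promoters, Lck among them, whose match is left in small letters above. It was also in 15 of 46 promoters of the contractile and adhesion lists and in 3 of 23 of the matrix lists. TTTGAA, the core of the cell cycle element called CHR, was present in 71.4% of 56 promoters of the mitosis list and in 14.2% of all. These 4 are among 19 motifs searched and were picked for display after their shares were seen. Among all genes higher or lower in P13.9 the shares lay close to those of all promoters, 247 of 1632 and 172 of 1239 for CATTCC and 36.9% and 41.6% for AGGAAG.

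The libraries differed in depth. Reads in named genes, recovered from the values, numbered 201627 to 352001 in P13.9 and 27789, 53280 and 97757 in naive 1, 2 and 3, so that 1 read is worth 0.442 to 0.767 in P13.9 and 2.17 to 6.55 in naive cells. Pearson correlations of log2(value + 1) over genes were 0.926 to 0.947 within P13.9, 0.601 to 0.765 within naive cells and 0.219 to 0.258 between them. Thinned to 27789 reads, the P13.9 libraries held 6881 to 6917 genes and the naive ones 6702 to 7062. Naive 1, the shallowest library, stood apart: its summed value over the mitosis list was 1343.5 against 706.7 and 539.2 in the other naive libraries, and over the glycolysis list 511.2 against 261.6 and 203.6. The count over all genes by both tests, given below, was 3889 without it. Several list counts below are given with and without 1 naive library.

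The labels were checked against fixed markers. Of 14 fibroblast markers measured, 11 were higher in each P13.9 library than in any naive one, and their summed value was 1126 to 1302 against 106.1 to 203.2. Col1a1 and Acta2, which mark matrix-producing and contractile fibroblasts, rested on 2 reads and 1 read in P13.9 and none in naive cells, while Col1a2, the partner chain of Col1a1, was at 51.4. Of 14 naive CD4+ T cell markers 11 were higher in each naive library, with sums of 1068 to 1373 against 10.2 to 23.4, and Cd3e, Ccr7, Il7r and S1pr1 were among those with no read in P13.9. Gapdh and Actg1, which nearly all cells transcribe strongly, read only 1.07 and 0.626 in P13.9 and 0.722 and 0 in naive cells, so that a low value in this table does not show that a transcript is absent.

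The naive libraries also held transcripts of other blood cells. Of 15 myeloid markers measured, 8 passed the filter on low values given below, and all 8 were lower in P13.9. Markers low in P13.9 could pass it only through groups in which they are high, so this count describes only the markers that passed. Without that filter, the sum over all 15 markers was 838.9 to 1097 in naive cells against 3.07 to 8.69 in P13.9. Most of it came from S100a8, a neutrophil calcium-binding protein, with values of 472, 558 and 420, and from its partner S100a9, with 236, 406 and 375, while the defining macrophage and dendritic markers Adgre1 and Itgax were at 0. The sum over 12 CD8 and NK cell markers was 136.6 to 162.4 against 7.35 to 8.44, with Cd8a and Cd8b1 at 0 in all 6 libraries. Genes that myeloid cells share with T cells, such as Laptm5, Coro1a, Lsp1, Rac2 and Ptprc, therefore have a naive value to which these cells may add, and their part was not tested. In such bulk libraries, fewer cells of a type and less RNA per cell cannot be told apart.

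After a filter on low values (5 or more in 3 or more of the 18 libraries), 8179 genes were tested, and limma called 4826 between P13.9 and naive cells at an adjusted p below 0.05, 59.0% of those tested, with 29.9% higher and 29.1% lower in P13.9. Because the naive libraries are shallow and vary more than the others, a gene is called higher or lower below only where edgeR's quasi-likelihood test on the recovered reads called it too, in the same direction. That left 3860 genes (47.2%), 2088 higher in P13.9 (25.5%) and 1772 lower (21.7%). Log2 differences exceeded 2 in size for 1311 of the higher and 1235 of the lower genes. The 3 values of one group all lay above the 3 of the other for 52.1% of genes tested. The median log2 difference of all genes was 0.16, and other scalings moved it to between 0.30 and 0.44. Among limma's calls the share that was higher was 50.6%, and 60.8% with each library scaled to the same total. With genes without reads set to their bound and reads pooled over a group, the median log2 ratio of all genes was -0.14. With the 6 libraries fitted alone, the filter was also applied to them alone. That fit tested 6866 genes and called 1291 higher and 1512 lower by both tests. List counts from it below share this general loss of calls, and members that it did not test count as not called. The plot of mean levels shows the genes spread to both sides of equality.

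**Figure D1:**
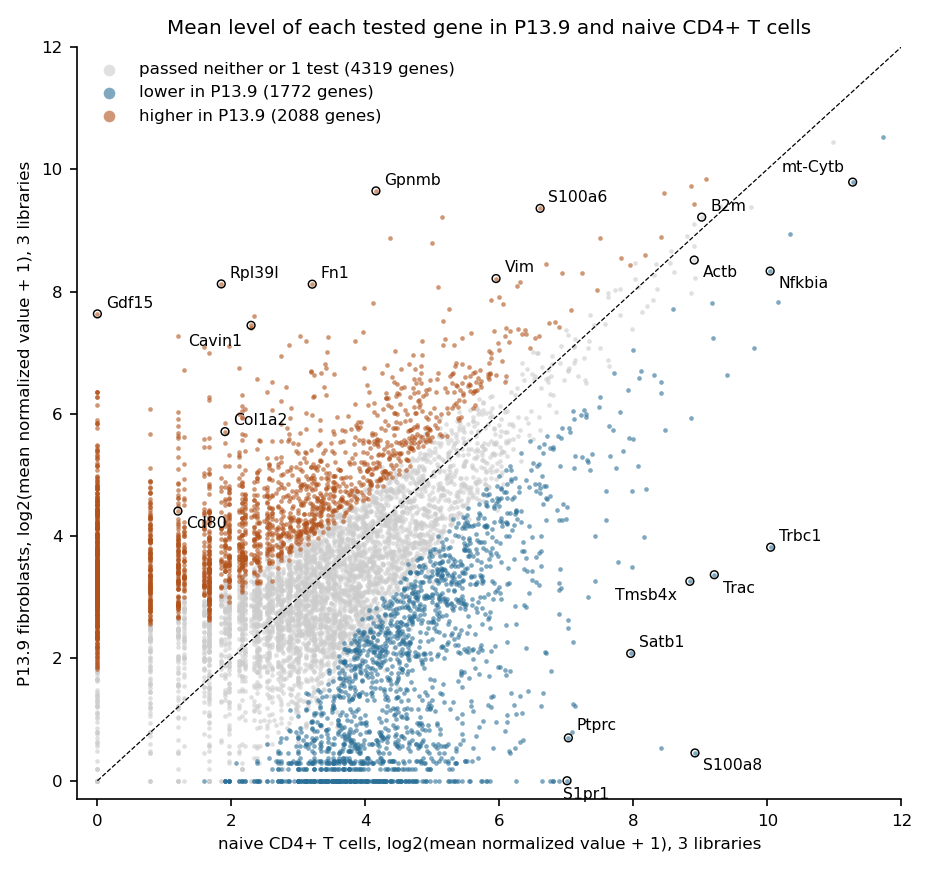
Mean normalized value of each tested gene in naive CD4+ T cells (x axis) and P13.9 fibroblasts (y axis), both as log2(mean + 1) over 3 libraries; colour marks the 2088 genes higher and the 1772 lower in P13.9 by both tests, grey the rest, and the dashed line equality. Gdf15, with no naive read, lies on the left edge and S1pr1, with no P13.9 read, on the lower edge.

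Of the T cell receptor complex and its co-receptors 14 of 15 tested members were lower in P13.9 (93.3%, against 21.7% of all genes). The median log2 difference was -4.01. Members low in P13.9 could pass the filter only through T cell groups in which they are high. The counts of this list, and of the signaling, lymphoid factor, homing, quiescence, leukocyte and GIMAP lists after it, therefore describe the members that passed. Without the filter, the sum over all 16 members was 20.8 to 40.8 in P13.9 and 1874.3 to 2338.6 in naive cells. Trac, the constant part of the receptor's alpha chain (chr14:54220521-54224198), read 8.44, 13.4 and 6.19 in P13.9 and 544, 632 and 596 in naive cells. Trbc1, a beta chain constant gene (chr6:41538219-41539665), read 13.8, 15.4 and 10.2 against 924, 1148 and 1104. All 3 naive libraries lay far above all P13.9 libraries for both genes, with log2 differences of -5.90 ± 0.21 (SE; limma adjusted p = 8.13e-13) and -6.24 ± 0.17 (limma adjusted p = 1.92e-14). Trbc1 shares most of its coding sequence with Trbc2, so that reads may be divided between the 2.

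Ptprc, the leukocyte phosphatase CD45 (chr1:138062859-138175756), had 1 read in each P13.9 library, values of 0.767, 0.669 and 0.442, against 91.7, 172 and 126, and its counts differed 225-fold with an exact 95% counting interval of 75.1 to 1106. Cd28, the main costimulatory receptor, read 0, 1.34 and 0.442 against 72.1, 70.3 and 99.6. Both groups were fully separated for these genes. The CD3 chain gene Cd3e had no read in P13.9 and read 0, 15.6 and 12.99 in naive cells, and Cd4 read 1.53, 0 and 0 against 0, 7.81 and 15.2. Naive 1 holds no read of either, at a depth where 1 read is worth 6.55, so that the groups overlap although both tests called both genes, and Cd4 lost its call without naive 2, naive 3, P13.9 2 or P13.9 3. Cd5, a dampener of receptor signals, rested on 1 naive read and did not pass.

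Of the proximal signaling proteins, which carry the receptor's signal inward, 20 of 24 tested were lower and none higher. Lck, the kinase that phosphorylates CD3 (chr4:129548344-129573641), read 3.07, 2.01 and 1.77 in P13.9 and 65.5, 42.9 and 60.6 in naive cells, a log2 difference of -4.13 ± 0.21 (limma adjusted p = 2.3e-11). Zap70, the kinase that docks on phosphorylated CD3, read 0.767, 0.669 and 0 against 13.1, 7.81 and 6.50. The members that did not pass include Plcg1, a phospholipase that many cell types use, with means of 9.94 ± 0.715 and 24.6 ± 16.5 (SD, n = 3 each), and Ptpn6, a phosphatase.

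Lymphoid transcription factors were lower for 18 of 21 tested, with a median log2 difference of -3.87. Satb1, a chromatin organizer of thymocytes and naive T cells (chr17:51736187-51833290), read 4.60, 2.01 and 3.09 against 183, 238 and 323. Tcf7, which encodes TCF-1, read 1.53, 1.34 and 0 against 59.0, 50.8 and 73.6, and its relative Lef1 had 1 read in P13.9 and values of 0, 23.4 and 30.3 in naive cells. Gata3, the Th2 regulator that naive CD4+ cells also need, read 1.53, 3.34 and 1.77 against 59.0, 35.1 and 43.3. The naive libraries were the higher ones throughout, apart from Lef1 in naive 1. Runx1, which acts in many tissues, did not pass, with means of 10.2 ± 2.99 in P13.9 and 14.8 ± 4.27 in naive cells, nor did Zbtb7b, the factor that commits thymocytes to the CD4 fate, with 6.997 ± 1.595 and 6.09 ± 5.87.

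Receptors for homing and for cytokines were lower for 15 of 19 tested. S1pr1, which lets lymphocytes leave lymph nodes (chr3:115710433-115715055), had no read in P13.9 and read 125, 125 and 134 in naive cells, at least 219-fold more when 3 reads over the group are taken as the limit. Ccr7, the chemokine receptor for lymph node entry (chr11:99144199-99155077), had no P13.9 read and read 65.5, 58.6 and 102, at least 140-fold more. Il7r, the receptor for the survival cytokine IL-7, had none either, against 19.7, 31.2 and 32.5. These 3 genes separated the groups in every library. Il6st, the signaling chain of IL-6 family receptors that most cell types carry, was the 1 member higher in P13.9, at 14.6, 14.7 and 17.7 against 6.55, 0 and 10.8 (log2 difference 1.89 ± 0.68, limma adjusted p = 0.0227). It no longer passed both tests without naive 1, naive 2 or P13.9 3, with the 6 libraries fitted alone, with array weights or after thinning.

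Quiescence genes were lower for 16 of 18 tested, with a median of -2.97. Klf2, the factor that drives S1pr1, read 1.53, 0.669 and 1.77 against 78.6, 164 and 173. Btg1 and Btg2, which slow growth by promoting messenger RNA decay, had means of 7.70 ± 0.909 and 1.70 ± 1.67 in P13.9 and 118 ± 23.4 and 99.6 ± 7.08 in naive cells. Cdkn1b, the cyclin kinase inhibitor p27, was at 17.1 ± 6.36 and 73.6 ± 10.1. Against T cells at 10 µM the same list was divided, with 5 of the 18 higher and 5 lower in P13.9. Of all genes tested, 24.7% were higher and 15.6% lower in that comparison, so the higher count lies near the share of all genes. Klf2 was lower in P13.9 than in those T cells, whose mean was 10.2 ± 1.39. Btg1 was higher, their mean being 3.16 ± 0.795, but it no longer passed under most alternatives, among them each 10 µM library left out, P13.9 2 or 3 left out, and 3 other scalings, and after thinning the difference was -0.0196.

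Of genes for the leukocyte cytoskeleton and membrane, 22 of 27 were lower. Tmsb4x, which sequesters actin monomers (chrX:167207093-167213479), read 8.44, 10.7 and 6.63 against 413, 508 and 455, a log2 difference of -5.60 ± 0.16 (limma adjusted p = 4.74e-14). Coro1a, an actin regulator of leukocytes, read 2.30, 3.34 and 2.21 against 78.6, 70.3 and 41.1. Of the GIMAP genes 6 of 8, which encode GTPases of lymphocyte survival, were lower, and Gimap6 had no P13.9 read against 125, 133 and 73.6, at least 169-fold more. Gimap7 and Gimap8 did not pass. The GIMAP genes are close relatives in 1 cluster on chromosome 6, and how reads shared by relatives were counted is not given.

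**Figure D2:**
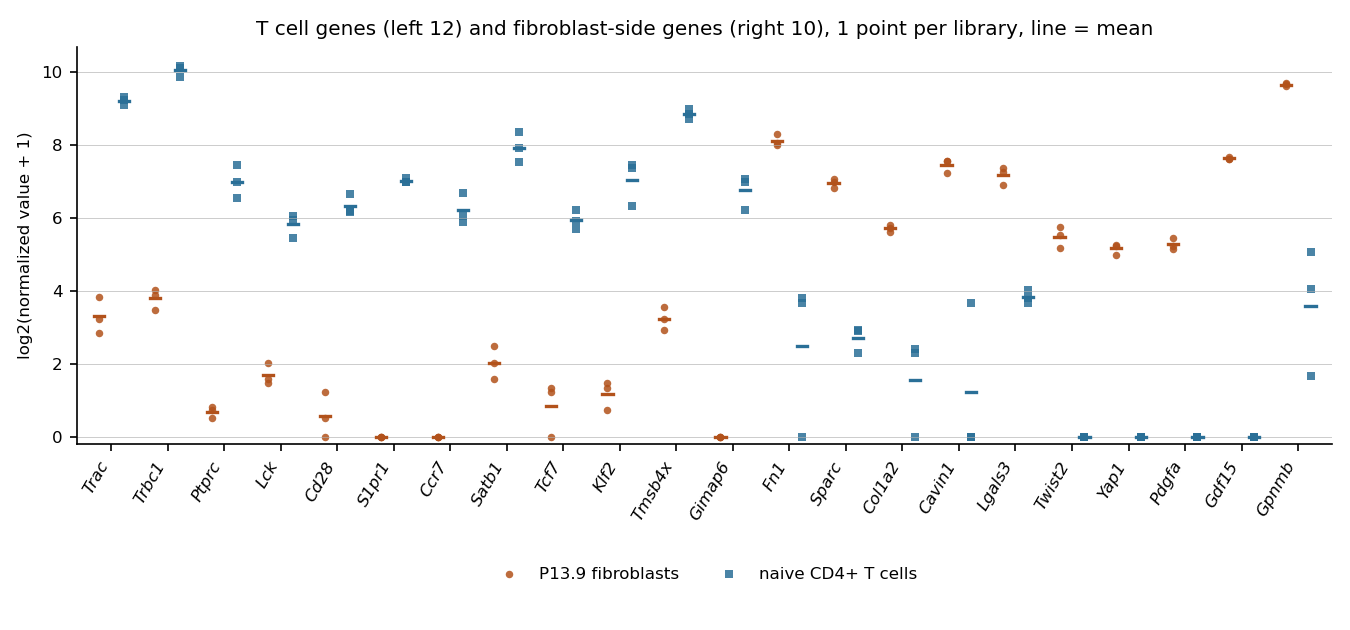
Log2(normalized value + 1) in each library for 12 T cell genes (left) and 10 genes higher in P13.9 (right), with a circle per P13.9 library, a square per naive library and a line at the mean of 3. No P13.9 point lies above a naive point on the left and no naive point lies above a P13.9 point on the right, while naive points of Fn1, Col1a2 and Cavin1 include libraries at 0.

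Collagens marked the fibroblast side. Of 18 listed, 13 were in the table and 9 passed the filter on low values. Genes low in naive cells could pass it only through groups in which they are high. The counts of this list, and of the collagen folding and crosslinking, matrix, adhesion, contractile, filament, transcription factor, receptor, secreted factor, YAP target and class II lists after it, are therefore descriptions of the members that passed. In all, 8 were higher in P13.9 and Col11a1 was lower. Col1a2, a chain of type I collagen (chr6:4505618-4541543), read 47.6, 52.1 and 54.4 against 0, 3.90 and 4.33, which is 3 naive reads and 15.1-fold less, with exact 95% bounds of 5.10 and 73.6 from counting. Col8a1, a short-chain collagen, read 42.2, 42.8 and 42.0 against 0, 3.90 and 0, and Col6a3, a microfibril chain, 36.8, 40.8 and 35.8 against 0, 7.81 and 6.50. P13.9 was above the naive libraries in all of these. Col11a1, a cartilage collagen, went the other way, with no P13.9 read and 6.55, 7.81 and 8.66 in naive cells, from 7 reads.

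Of 25 listed enzymes and chaperones that fold, modify and crosslink collagen, 21 were in the table and 11 passed the filter, 3 of them with no naive read. Of those 11, 8 were higher and none lower. Serpinh1, the collagen chaperone HSP47 (chr7:99345375-99353239), read 51.4, 54.8 and 44.6 against 0, 3.90 and 0. P4hb, a subunit of prolyl hydroxylase that also serves as a general disulfide isomerase, read 75.9, 85.6 and 80.0 against 19.7, 11.7 and 32.5. T cells at 10 µM held 96.2 ± 13.3 of P4hb, and P13.9 did not differ from them by the tests, while Serpinh1, at 2.47 ± 1.72 in those cells, was higher in P13.9. P4ha1, the catalytic subunit of that hydroxylase, did not pass against naive cells, at 6.26 ± 1.67 and 4.05 ± 3.91.

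Of 51 other matrix proteins and proteases listed 37 were in the table and 22 passed the filter, 5 of them with no naive read, and 18 of those were higher and 2 lower. Without the filter 6 were lower. Fn1, fibronectin (chr1:71585473-71653280), read 252, 316 and 265 against 0, 11.7 and 12.99, and Sparc, a collagen-binding matricellular protein (chr11:55394159-55420080), read 132, 126 and 111 against 6.55, 3.90 and 6.50. The log2 differences were 5.62 ± 0.67 (limma adjusted p = 9.49e-07) and 4.24 ± 0.27 (limma adjusted p = 3.93e-10). Timp2, a metalloproteinase inhibitor, had means of 130 ± 18.5 and 20.7 ± 7.16, and Mmp14, a membrane-bound collagenase, 59.99 ± 13.4 and 3.49 ± 3.30. Bgn and Eln, the matrix proteins biglycan and elastin, were lower in P13.9, at 0.147 ± 0.255 and 0.806 ± 0.770 against 9.12 ± 3.41 and 9.84 ± 4.65, from 9 and 10 naive reads, and without naive 3 Eln did not pass. T cells at 10 µM had no read of either.

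Caveolae are membrane pits abundant in fibroblasts. Cavin1, their coat protein (chr11:100956736-100970617), read 186, 148 and 187 against 0, 11.7 and 0, and Cav1, their main membrane protein, 71.3, 86.9 and 77.8 against 6.55, 3.90 and 0. In all, 16 of 27 tested adhesion and caveola genes were higher, and Cd9 and Itgb3 were lower, although Itgb3 lost its call without naive 2, naive 3, P13.9 1 or P13.9 3. The tetraspanin Cd63 read 572, 415 and 416 against 13.1, 35.1 and 10.8. Genes of focal adhesions that T cells also use did not pass: Itgb1, the common integrin beta chain, was at 14.9 ± 2.64 and 14.9 ± 11.6, and Tln1 and Vcl, which link integrins to actin, also lay below the thresholds.

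Contractile genes were divided, with 12 of 27 tested higher, 1 lower and 14 passing neither or 1 test. The higher and lower shares were 44.4% and 3.70%, against 25.5% and 21.7% of all genes. Cald1, caldesmon, which binds actin and tropomyosin (chr6:34598495-34775469), read 61.4, 72.9 and 62.7 against 13.1, 0 and 2.17, and Tpm2, a tropomyosin, 12.99, 9.36 and 9.28 against 0, 3.90 and 0, though Tpm2 did not pass without naive 3. Flna, an actin crosslinker, was higher than in naive cells, at 45.7 ± 7.96 and 15.5 ± 9.38, and close to the T cells at 10 µM, at 46.4 ± 2.55. Tmsb10, an actin-sequestering peptide, was the lower member. Actb, beta actin, did not pass: it read 348, 402 and 345 in P13.9 and 767, 387 and 286 in naive cells, with naive 1 above the rest. With the 6 libraries fitted alone, 7 of the list were higher.

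Intermediate filament, annexin, galectin and S100 genes were higher for 19 of 22 tested and lower for none. S100a6, a calcium-binding protein of mesenchymal cells (chr3:90612894-90614414), read 587, 657 and 726 against 131, 93.7 and 65.0. Lgals3, galectin-3, read 119, 162 and 152 against 13.1, 11.7 and 15.2. Vim, the filament protein vimentin, read 295, 318 and 275 against 118, 42.9 and 21.7, and Lgals1, galectin-1, 150, 142 and 133 against 131, 42.9 and 12.99, with naive 1 the highest naive library for both. Against T cells at 10 µM they did not keep that direction: Vim was at 281 ± 14.6 there and did not pass, and Lgals1 was lower in P13.9 than the 359 ± 36.1 of those cells, a call that was lost with any 1 of these 6 libraries left out.

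Of 46 mesenchymal transcription factors listed 28 passed the filter, 10 of them with no naive read, and 17 of those were higher and 5 lower. Twist2, a helix-loop-helix factor of mesoderm (chr1:91801461-91848034), read 52.9, 44.8 and 34.9 with no naive read, at least 12.3-fold more, and Snai2, a zinc finger factor of mesenchymal cells, 22.2, 18.7 and 38.0 with none, at least 8.20-fold more. Hmga2, a chromatin protein of embryonic and transformed cells, read 77.5, 56.8 and 66.3 against 0, 0 and 2.17. The relative Twist1 had no read in either group. Of those lower in P13.9, Id2, an inhibitor of helix-loop-helix factors that T cells use too, was at 8.64 ± 2.87 against 171 ± 36.8, and Zeb1, a repressor used in both mesenchyme and T cells, at 0.256 ± 0.443 against 35.6 ± 22.7. Prrx1, a homeobox factor of limb mesenchyme, passed only limma, at 12.7 ± 1.74 and 6.65 ± 8.06.

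The YAP and TEAD pathway was measured at its factors and its targets. The coactivator Yap1 (chr9:7931999-8004638) read 36.8, 30.8 and 37.6 with no naive read, its relative Wwtr1, which encodes TAZ, 8.44, 13.4 and 7.95 with none, and their partner Tead1 23.8, 22.7 and 13.7 against 0, 7.81 and 0. All 3 were higher in P13.9. Of their listed targets 13 passed the filter, 6 of them with no naive read, and 7 were higher. Amotl1, an angiomotin that binds YAP (chr9:14541966-14662974), read 69.0, 84.2 and 76.4, and Ankrd1, whose promoter is printed above, 26.1, 30.8 and 31.4, both with no naive read. Amotl2 read 13.8, 13.4 and 14.1 against 0, 0 and 2.17, and Ccn1, a matricellular protein also called CYR61, 17.6, 8.69 and 9.28 against 0, 3.90 and 0, though Ccn1 did not pass without naive 3. Ccn2, the related target, had 3 P13.9 reads and did not pass, and Gadd45b, a stress response gene also controlled by NF-kappa-B, was lower.

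Of growth factor receptors 14 of 21 tested were higher. Fgfr1 read 51.4, 50.8 and 40.7 against 0, 3.90 and 0, and Pdgfra, the platelet-derived growth factor receptor alpha that marks fibroblasts, 23.8, 18.7 and 17.2 against 6.55, 0 and 0. Tgfbr1, a transforming growth factor receptor that T cells also carry, was at 4.45 ± 0.794 and 22.3 ± 16.004 and was called lower. That call was lost without naive 1, naive 3, P13.9 2 or P13.9 3 and with the 6 libraries fitted alone.

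Of secreted factors 15 of 22 tested were higher and 3 lower. Gdf15, a stress-induced cytokine (chr8:70629393-70632470), had a log2 difference of 7.63 ± 0.30 (limma adjusted p = 2.12e-12), and it read 196, 195 and 203 in P13.9 with no naive read, at least 57.7-fold more. Pdgfa, a ligand of Pdgfra, read 34.5, 42.8 and 36.7 with no naive read. Csf1, the macrophage growth factor, read 81.3, 110 and 82.2 against 13.1, 0 and 2.17, and Ccl2, a monocyte chemokine, 95.1, 104 and 103 against 19.7, 7.81 and 0. P13.9 lay above every naive library for each of them. Ccl5, a chemokine of T and NK cells, was lower, at 4.63 ± 1.98 and 57.3 ± 25.02, as was Igfbp4, a binding protein of insulin-like growth factors.

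The 15 genes highest in P13.9 by log2 difference, counted only where the groups did not overlap and the P13.9 mean reached 20, included several outside these lists. Gpnmb, a glycoprotein of endolysosomal membranes (chr6:49036518-49058182), read 806, 822 and 773 against 32.8, 15.6 and 2.17. Rhoc, a small GTPase of the cytoskeleton, read 125, 164 and 174 against 0, 3.90 and 0. Rpl39l, a ribosomal protein gene related to Rpl39, read 244, 281 and 309 against 0, 7.81 and 0, and its reads may be shared with that relative. Tpsab1, a tryptase known from mast cells, read 66.0, 88.2 and 88.4 and F11r, a junction adhesion molecule, 79.0, 86.2 and 76.4, both with no naive read. All 5 had no overlap between the groups.

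**Figure D3:**
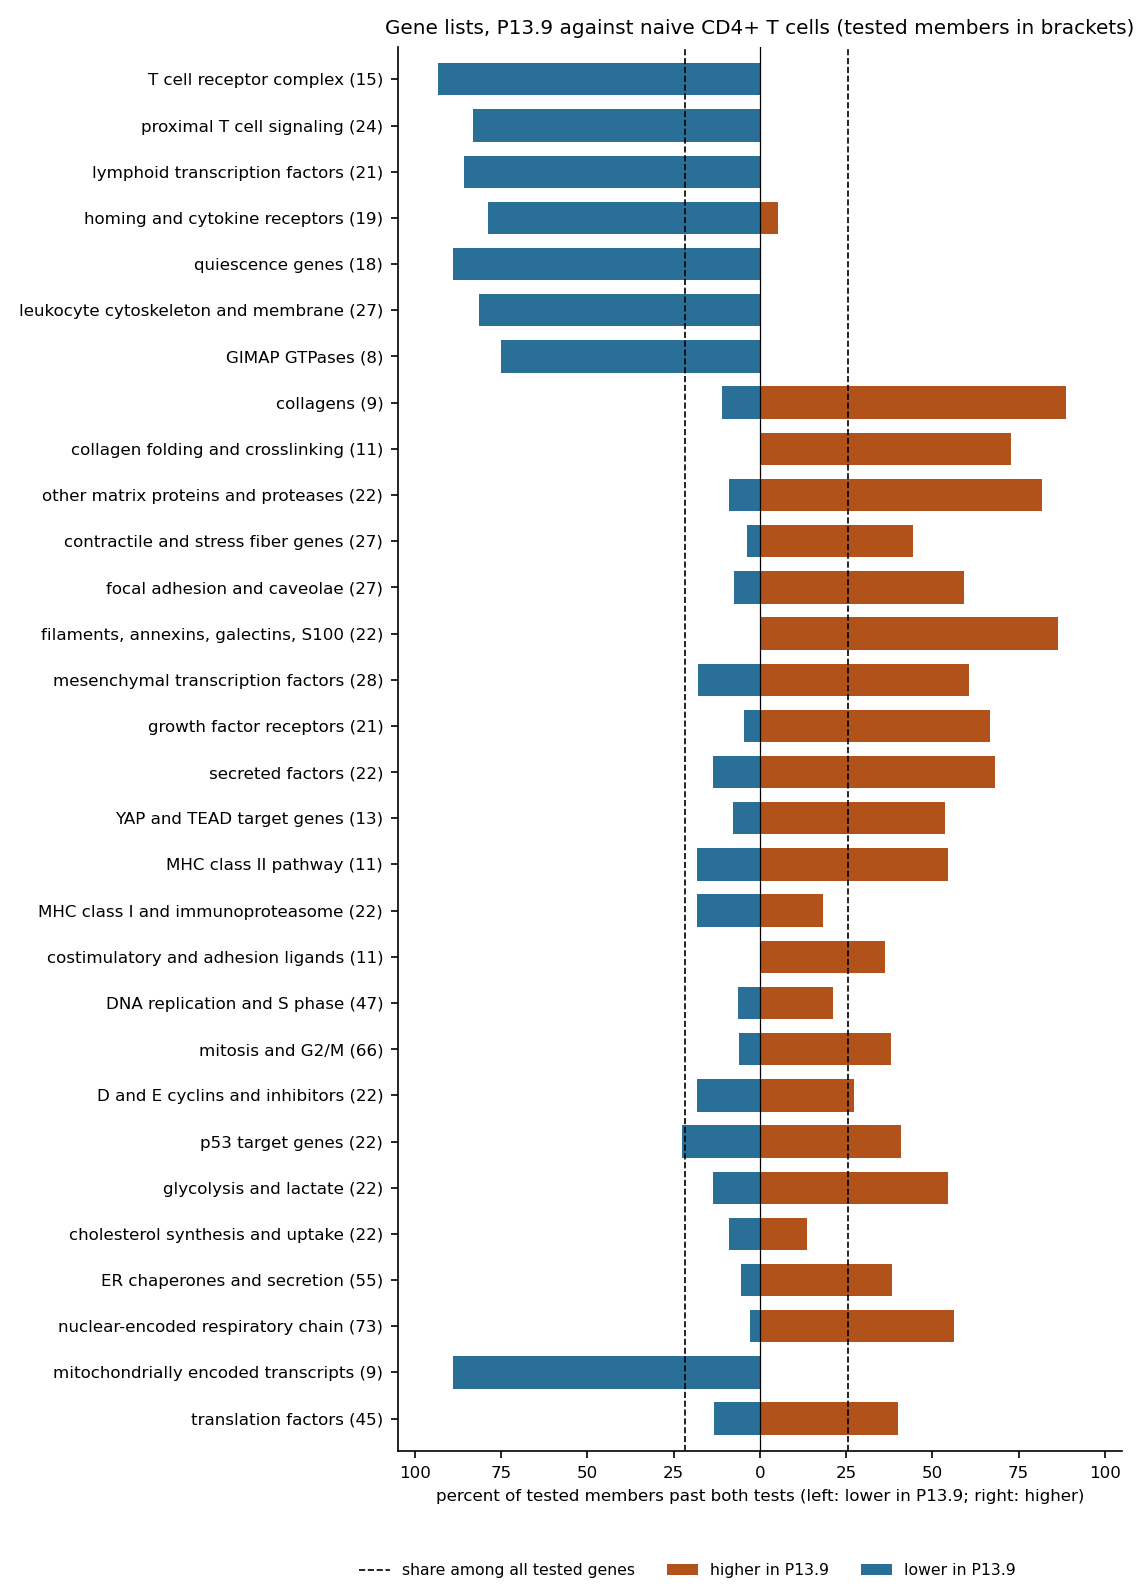
Percent of the tested members of each gene list that were higher (right bars) or lower (left bars) in P13.9 than in naive CD4+ T cells by both tests, with dashed lines at 25.5% and 21.7%, the shares of all 8179 tested genes. The 7 T cell lists and the mitochondrially encoded transcripts point left, the matrix, adhesion and filament lists point right, and the replication and cholesterol lists stay near or below the dashed lines.

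P13.9 presented peptide to the T cells, so antigen presentation was examined next. H2-Eb1, the beta chain of I-E (chr17:34305867-34316674), read 9.20, 17.4 and 13.3 in P13.9 and 13.1, 15.6 and 10.8 in naive cells and did not pass. H2-Ea, the alpha chain (chr17:34341952-34344645), read 6.14, 3.34 and 1.33, from 16 reads, with none in naive cells, and lay under the filter. The chains of the other class II molecule, I-A, went the other way: H2-Aa had no P13.9 read and read 13.1, 19.5 and 23.8 in naive cells, and H2-Ab1 had none and read 0, 11.7 and 8.66. From which cells the naive class II reads came was not tested. Cd74, the invariant chain that escorts class II molecules, did not pass, at 7.67, 9.36 and 8.40 against 0, 27.3 and 19.5. H2-Eb1 was higher in P13.9 than in T cells at 10 µM, whose mean was 1.21 ± 1.06 (log2 difference 2.76, limma adjusted p = 2.23e-05).

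Of the class II list 6 of 11 tested were higher, and these were proteins of the endolysosome in which peptides are made and loaded. Ctsl, cathepsin L (chr13:64361890-64370772), read 212, 206 and 158 against 0, 7.81 and 4.33. Ctsb, cathepsin B, read 96.6, 116 and 96.3 against 0, 15.6 and 8.66, and Lgmn, legumain, 70.6, 84.2 and 67.2 against 0, 0 and 6.50. H2-DMb1, a chain of the peptide-exchange factor H2-DM, read 43.7, 42.8 and 46.8 against 13.1, 7.81 and 0, but its partner H2-DMa did not pass, at 3.17 ± 1.93 and 3.47 ± 3.27. Ctss, cathepsin S, which trims the invariant chain in professional presenting cells, had no P13.9 read and read 6.55, 31.2 and 34.6 in naive cells.

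Of the class I list 4 of 22 tested were higher and 4 lower, 18.2% each way, below the 25.5% and 21.7% of all genes. Without naive 1 the counts were 6 and 4, and without naive 3 they were 4 and 2. H2-K1 and H2-D1, the classical class I heavy chains, were lower in P13.9, at 208 ± 28.0 and 100.4 ± 17.7 against 384 ± 52.4 and 209 ± 22.8, calls that both genes lost without naive 3, and B2m, their light chain, read 555, 697 and 530 against 616, 402 and 537 and did not pass. Tapbp, tapasin, which loads class I molecules, was higher. H2-Q6, H2-Q7 and H2-T22 were also called, but near-identical relatives make their counts uncertain. Of 19 listed ligands for T cell receptors of costimulation and adhesion, 18 were in the table and 11 passed the filter, 2 of them with no naive read. Members low in naive cells could pass only through groups in which they are high, so the count describes those that passed. Of the 11, 4 were higher, 36.4% against 25.5% of all genes. Cd80, the ligand of CD28, read 23.01, 24.1 and 13.7 against 0, 3.90 and 0. Cd40 read 5.37, 4.68 and 9.28 with no naive read, while Tnfsf9 and Icam2 were the other 2. Icam2, from 16 reads, did not pass with any 1 naive library left out. The median log2 difference of this list was 1.69, or -0.05 with reads pooled and zeros at their bound. Icam1, the ligand of LFA-1, passed only limma, at 9.20, 14.7 and 15.5 against 0, 3.90 and 12.99, and the groups overlap.

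**Figure D4:**
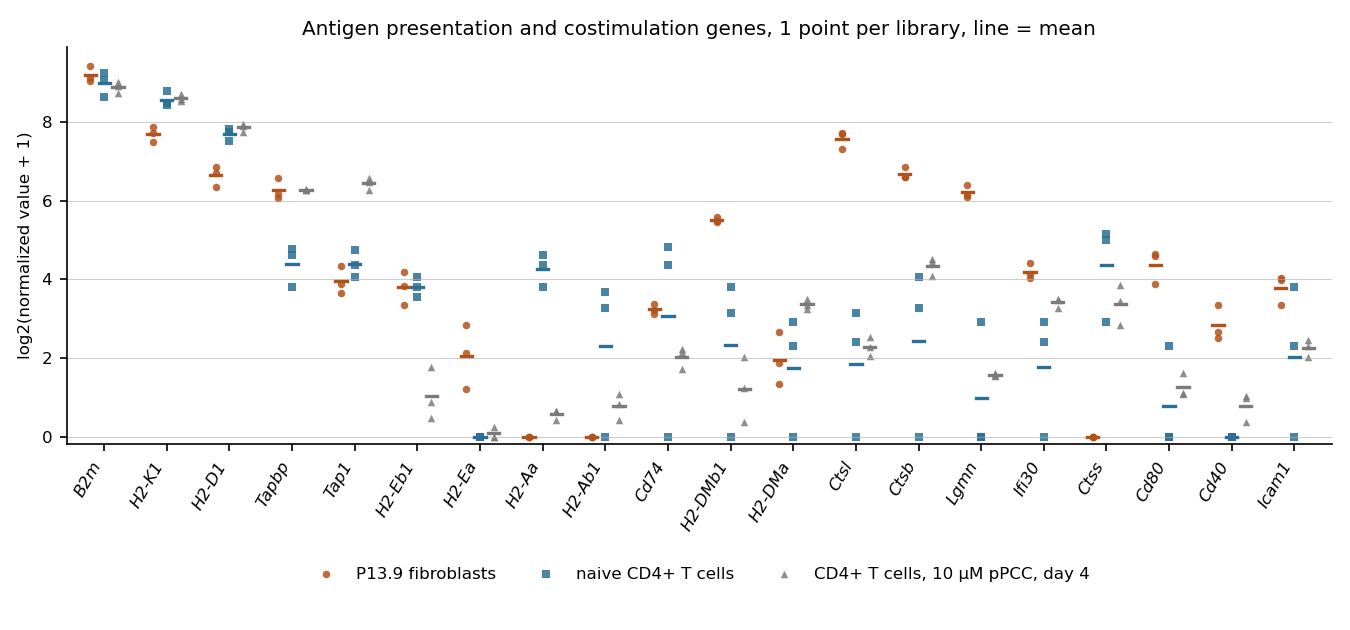
Log2(normalized value + 1) of 20 antigen presentation and costimulation genes in each library of P13.9 (circles), naive CD4+ T cells (squares) and CD4+ T cells on day 4 at 10 µM pPCC (triangles), with a line at each mean. Ctsl, Ctsb, Lgmn, H2-DMb1, Cd80 and Cd40 have all P13.9 points above all others, H2-Aa and Ctss have all P13.9 points at 0, and B2m overlaps between P13.9 and naive cells.

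Of DNA replication genes 10 of 47 tested were higher and 3 lower, shares of 21.3% and 6.38% that lie below those of all genes. Mcm3 and Mcm5, subunits of the replicative helicase, did not pass, at 20.4 ± 6.19 and 25.0004 ± 1.73 against 14.8 ± 4.27 and 24.3 ± 24.4. Mcm5 read 52.4 in naive 1 against 11.7 and 8.66 in naive 2 and 3. Pcna, the polymerase clamp, was lower in P13.9, at 1.53, 7.35 and 6.63 against 19.7, 31.2 and 32.5. Without naive 1, 15 replication genes were higher and 2 lower, without naive 2, 4 were higher, and without naive 3, 5 were.

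Mitosis genes were higher for 25 of 66 tested and lower for 4, 37.9% and 6.06% against 25.5% and 21.7% of all genes. Ccnb1, cyclin B1 (chr13:100778739-100786486), read 16.9, 11.4 and 10.6 with no naive read. Top2a, the topoisomerase of dividing cells, read 63.7, 82.2 and 92.8 against 59.0, 23.4 and 4.33, again with naive 1 the highest of the naive libraries. Mki67, the proliferation antigen, did not pass, at 5.86 ± 1.32 and 2.91 ± 3.34. The count of 25 went to 36 without naive 1, to 19 without naive 2 and to 12 without naive 3, the deepest naive library, and to 8 when the 6 libraries were fitted alone. Over all genes the 2088 higher calls went to 2071, 1742, 1542 and 1291 in the same settings.

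The same lists were set against T cells at 10 µM. That comparison called 3299 genes by both tests, 40.3% of those tested, 2020 higher in P13.9 (24.7%) and 1279 lower (15.6%). The higher share of these calls, 61.2%, was 48.3% with quantile normalization and 51.7% with each library scaled to the same total. Of the replication list none was higher and 26 of 47 were lower, and of the mitosis list 2 were higher and 23 lower. Mcm3 was at 88.6 ± 6.88 in those T cells and Mcm5 at 100.9 ± 3.30, above all P13.9 libraries. Both comparisons use the same P13.9 libraries and the T cells were cultured on P13.9, whose RNA in them was not measured apart, so the 2 sets of values are given side by side only.

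Among cyclins and their inhibitors, Ccnd1, cyclin D1, the D cyclin of most cells outside the blood, was higher in P13.9, at 95.9, 118 and 107 against 19.7, 11.7 and 12.99, and at 4.03 ± 0.0783 at 10 µM. Ccnd2 and Ccnd3, the D cyclins of lymphocytes, did not pass against naive cells, at 79.0 ± 8.47 and 32.2 ± 7.41 against 107 ± 20.6 and 37.6 ± 24.2. Cdk4, the partner of D cyclins, and Myc were among the 6 of 22 higher, Myc not without naive 3. Of this list 4 were lower, and 2 without naive 1. The shares of this list, 27.3% higher and 18.2% lower, lie near the 25.5% and 21.7% of all genes. Of p53 targets 9 of 22 were higher (40.9%), Gdf15 and Phlda3 among them. The 5 lower ones (22.7%, near the share of all genes) included Btg2 and Mdm2, Mdm2 not without naive 3. With the 6 libraries fitted alone 5 p53 targets were higher. Cdkn2a, the inhibitor p16 and ARF, had no read in either group, and the transcript of p53 itself, Trp53, did not pass.

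Glycolysis genes were higher for 12 of 22 tested and lower for 3, 54.5% and 13.6% against 25.5% and 21.7% of all genes. The median log2 difference of the list was 1.28, or 0.64 with reads pooled and zeros at their bound. Pkm, pyruvate kinase, read 79.0, 104 and 118 against 45.9, 35.1 and 17.3, and Aldoa, aldolase A, 83.6, 81.6 and 85.3 against 65.5, 19.5 and 4.33. Ldha, lactate dehydrogenase A, read 93.6, 109 and 97.2 against 125, 23.4 and 23.8, and naive 1 lay above P13.9. Ldha was called higher, but not without naive 2 or naive 3. The count of 12 stood at 12 without naive 1, at 7 without naive 2 and at 6 without naive 3. Slc2a3, the glucose transporter of lymphocytes, was lower, and Slc2a1, that of most cells, was called higher, at 29.3 ± 9.45 and 17.7 ± 7.58, but not without naive 2, naive 3, P13.9 1 or P13.9 2. Against T cells at 10 µM 1 glycolysis gene was higher and 13 lower, with Ldha at 337 ± 33.8 there. In that comparison 24.7% of all genes were higher and 15.6% lower.

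Respiratory chain genes of the nucleus and of the mitochondrial genome lay on opposite sides. Of 73 tested nuclear genes 41 were higher in P13.9 and 2 lower, 56.2% and 2.74% against 25.5% and 21.7% of all genes. The median of these nuclear genes was 0.98, and with the 6 libraries fitted alone 25 were higher and 1 lower. Atp5b, the beta subunit of the ATP synthase, read 85.9, 127 and 110 against 65.5, 42.9 and 28.2. Of the 9 mitochondrially encoded transcripts 8 were lower, with a median of -1.95. The protein-coding mt-Co1 read 265, 205 and 209 against 1173, 1093 and 1172, and mt-Cytb 1003, 899 and 752 against 2169, 2413 and 2843. Mitochondrial transcripts took 4.29% to 4.54% of named reads in P13.9, 14.9% to 15.8% in naive cells and 2.77% to 3.54% at 10 µM. With each library scaled to the same total without these transcripts the count of lower ones was again 8, and with quantile normalization it was 5.

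**Figure D5:**
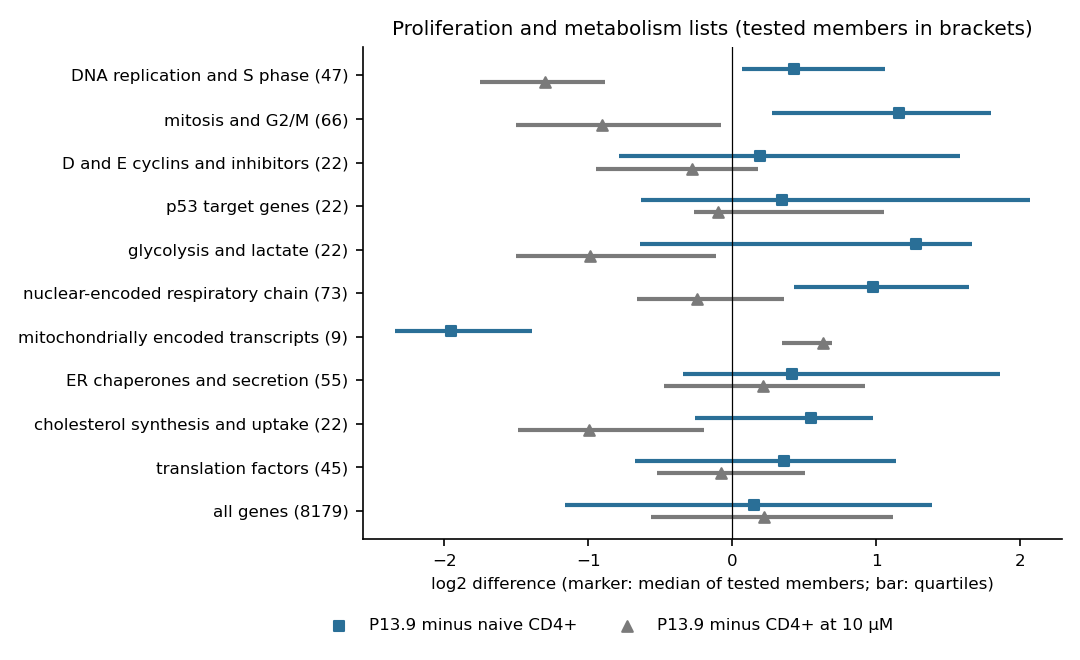
Median log2 difference (markers) and quartiles (bars) over the tested members of proliferation and metabolism lists, for P13.9 minus naive CD4+ T cells (blue squares) and P13.9 minus CD4+ T cells at 10 µM pPCC (grey triangles); the lowest entry is all 8179 tested genes. List medians lie right of 0 against naive cells and left of it against the 10 µM cells, except for the following. Those of ER chaperones and secretion lie right of 0 in both, and mitochondrially encoded transcripts do the reverse. Quartile bars of several lists cross 0, that of glycolysis against naive cells among them.

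Of 55 tested genes of endoplasmic reticulum folding and transport 21 were higher and 3 lower, 38.2% and 5.45% against 25.5% and 21.7% of all genes. Lman1, a cargo receptor, Kdelr3, a retrieval receptor, and Ddost, a subunit of oligosaccharyltransferase, had log2 differences of 3.91, 3.47 and 3.25, while the abundant chaperone Hspa5 did not pass, at 264 ± 2.45 and 326 ± 104. The pro-death factor Ddit3 was one of the lower genes, and without naive 3 none of this list was lower. Of cholesterol genes 3 of 22 were higher, namely the desaturases Scd1, Scd2 and Fads1, and 2 were lower. These shares, 13.6% and 9.09%, lie below those of all genes. Without naive 1, 5 were higher, and without naive 2 or without naive 3, 2 were, Scd2 no longer among them. Of translation factors 18 of 45 were higher (40.0%), Eef1a1 among them at 373 ± 109 and 223 ± 24.9, and 6 were lower (13.3%), Eif4a1 among them at 9.71 ± 3.85 and 27.5 ± 10.2. With the 6 libraries fitted alone 8 were higher. Neither of these 2 genes passed without naive 2.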

How the data were processed

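Total RNA was extracted with TRIzol and sequenced from the 3′ end (Lexogen QuantSeq, Illumina NextSeq), per the labels' protocols. Per the submitters' processing notes, FastQC 0.11.8, STAR 2.6.1d, HTSeq 0.9.1, DESeq2 and the build mm10 were used; annotation and strand setting: not given in the sources used here. The deposited values, a normalized signal per gene, are read counts divided by 1 size factor per library: 99.9996% of 284544 values are whole multiples of 1 read within 1e-05 read. The 110 features without a name stayed out of tests. Columns were matched to groups by name.

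Genes that reached a value of 5 in 3 or more of 18 libraries were tested with limma 3.58.1 on log2(value + 1) over all 6 groups. Benjamini-Hochberg adjustment was at 0.05 (R 4.3.3). The added 1 is less than 1 naive read, worth 2.17 to 6.55. Log2 differences of genes with few naive reads can therefore lie above or below the ratio of pooled reads. The median of the YAP and TEAD target list was 2.85, or 0.96 with reads pooled and zeros at their bound. On simulated data the limma fit made too many false calls against the shallow naive libraries. A gene is therefore called only where edgeR 4.0.16 on recovered reads calls it too, a rule adopted after that test. A gene without reads in a group was bounded at 3 reads over the group, and counting intervals are exact at 95% and cover counting error only. Alternatives were other pseudocounts, filters, scalings, DESeq2 1.42.0, thinning, array weights, a replicate block and leaving out libraries. Named genes are members of 35 lists and the 15 largest differences each way where groups did not overlap and the higher mean reached 20. The members and lists were chosen with earlier results of these data known. RefSeq names (GRCm38.p6) matched 13864 genes by symbol and 30 by synonym.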

Additional observations from a re-analysis of the deposited data

Results flagged for a closer look

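The largest feature without a gene name lies outside all comparisons and had a signal in every library. Its mean value was 31588 ± 6674 in naive cells and 6378 ± 1179 in P13.9 (SD, n = 3 each), which is 11.5% to 14.7% and 3.30% to 4.63% of all reads. The source of these reads was not tested.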

How the results depend on the processing

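Limma's 4826 calls between P13.9 and naive cells numbered 1252 (546 higher, 706 lower) when only genes whose mean reached 20 were kept, so that fewer were tested. They numbered 2952 (1302 higher) with the 6 libraries fitted alone, where 6866 genes were tested. Without the filter 3871 were higher. By both tests the filter at 20 left 1134 (543 higher, 591 lower), and the 6 libraries alone gave 1291 higher. Leaving out 1 library gave 4307 to 5302 by limma (2130 to 2607 higher, 2169 to 2695 lower) and 2898 to 3889 by both tests (1542 to 2071 higher, 1356 to 1818 lower). The replicate block gave 4976 by limma and 3798 by both tests. Deviations of same-numbered libraries from their group means correlated at -0.015 to -0.005. In the shallow naive libraries counting error could hide a pairing, so whether the numbers pair libraries cannot be told. Against 10 µM, where one group has numbers and the other letters, no block was run. EdgeR alone called 4119 genes and DESeq2 3840.

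Against T cells at 10 µM the filter at 20 left 816 (471 higher, 345 lower) by limma and 806 (461 higher, 345 lower) by both tests. The lower genes numbered 1948 with array weights (1936 by both tests), 2394 with edgeR and 2016 with DESeq2, and thinning left 2192 by both tests, 1226 of them higher. Leaving out 1 library gave 2805 to 2950 by limma (1778 to 1885 higher, 1013 to 1085 lower) and 2712 to 2860 by both tests (1692 to 1798 higher, 1013 to 1085 lower). The cause of these shifts was not tested.

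Of 161 named genes 22 no longer passed both tests in 1 or more alternatives, 15 of them without naive 3, the deepest naive library. Ddit3, Tgfbr1, Il6st and Slc2a1 did so most often. Ccnd3, not called, was at log2 differences of -0.32 to 0.41 with 1 library left out, the highest without naive 1, Icam2 at 0.00 after thinning, and Btg1 against 10 µM at -0.0196 after thinning.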

Other observations

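Of 8 immediate-early and early activation genes, 6 were lower in P13.9 than in naive cells by both tests, and 2 did not pass. The 8 were chosen after their values were seen, so that this count does not describe such genes as a class. Of all genes tested 21.7% were lower. Nr4a1, a nuclear receptor induced by T cell receptor signals, read 151, 144 and 113 in naive cells and 3.07, 0.669 and 0.442 in P13.9. Fos, a subunit of AP-1, read 45.9, 74.2 and 84.5 against 1.53, 1.34 and 0.442, and Junb, its partner, 249.03, 359 and 407 against 94.3, 84.2 and 93.2. Nfkbia, the inhibitor of NF-kappa-B, read 806, 1035 and 1319 against 306, 339 and 321. No P13.9 library reached a naive one for any of these, and all 4 were called lower in P13.9 by both tests. Cd69, an early activation antigen, and Rgs2, a regulator of G protein signaling, had no P13.9 read and means of 107 ± 32.6 and 111 ± 31.1 in naive cells (SD, n = 3). Egr1 did not pass both tests, at 23.6 ± 0.664 in P13.9 and 49.1 ± 19.9 in naive cells, nor did Ier2, at 5.00 ± 1.07 and 18.4 ± 16.3. In T cells at 10 µM Nr4a1 was at 2.08 ± 1.13 and Fos at 0.386 ± 0.263.

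Neutrophil granule genes stood beside S100a8 and S100a9 in the naive libraries. Ngp, neutrophilic granule protein, read 91.7, 117 and 145 and Camp, the cathelicidin peptide, 78.6, 121 and 95.3, both with no read in P13.9, at least 215-fold and 169-fold more.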
